A study of Mus musculus with 22 samples.

Results

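Striatal neuron genes were followed here in dissections of cerebral cortex and hippocampus from Ts1Cje mice and their wild-type (WT) littermates. The list holds 35 genes under 36 names, because Indo is an older name of Ido1, and 34 of them had a named feature among the 20239 genes measured. Adora2a was not analysed here. The genes were chosen as transcripts enriched in medium spiny neurons or acting in dopamine signalling, and each was found in the deposited values by its Entrez gene number. Of the 34 genes, 20 were listed as largely striatal within the forebrain (narrow genes) and 14 as also used by other forebrain neurons (broad genes). No striatum was measured here, so this grouping was not tested. The narrow gene Strip2 was not called higher in cortex than in hippocampus.

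The striatum lies directly beneath the cortex, separated from it by the white matter, so a cortex dissection can carry some striatal tissue with it. Medium spiny neurons are the projection neurons of the striatum: those of the direct pathway carry the D1 dopamine receptor, prodynorphin and substance P, and those of the indirect pathway carry the D2 receptor and enkephalin. Dopamine acts on them through cyclic AMP, which D1-type receptors raise and D2-type receptors lower, and through the phosphatase inhibitor DARPP-32, the product of Ppp1r1b. Some of these genes also have a place of their own in cortical neurons or interneurons, Penk, Pdyn, Tac1, Foxp1, Bcl11b and Meis2 among them.

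RNA from whole dissected cortex and whole dissected hippocampus of 11 female mice was hybridised to 22 Affymetrix mouse gene 1.0 ST arrays, 1 per animal and region. Ts1Cje mice, a model of Down syndrome, carry an extra copy of a distal segment of chromosome 16 that begins beside Sod1; here there were 6 Ts1Cje animals and 5 WT littermates, all 8 to 10 weeks of age, from a line kept by crossing Ts1Cje males to C57Bl/6J females. Animals keep the numbers of the labels: WT 60, 62, 65, 95 and 98, and Ts1Cje 61, 63, 64, 87, 94 and 97 (for animal 60 a second label field of both arrays reads 61). Drd3 (chromosome 16, 43754015 to 43825982, GRCm38.p6) and Adcy5 (35154494 to 35305743) lie on chromosome 16 as well, both ahead of Sod1 at 90220762, so no member listed on that chromosome lies inside the extra segment.

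All levels below are log2 array signals, on which a step of 1 is a 2-fold change, given as mean ± SD with n = 5 for WT and n = 6 for Ts1Cje. Levels are compared for the same gene only, since probes of different genes are not on a common scale, and the number of arrays limits the precision. The median signal of an array was 7.53 to 7.62 in cortex and 6.91 to 6.95 in hippocampus, and the regions were extracted with different kits, so differences between regions are given after each array was centred on its own median. The arrays of animals 60 and 64 had a narrower spread of signals over all genes in both regions, with an SD of 1.86 and 1.95 in cortex, where the other 9 arrays had 2.17 to 2.22. Genes of hippocampal neurons checked the labelled tissue: 16 of 18 were lower in cortex, with a median difference of -1.31. In bulk tissue, fewer cells of a type and less RNA per cell cannot be told apart.

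Striatal neuron genes were far higher in the cortex dissections than in the hippocampus. By limma, 32 of 34 were higher in cortex at an adjusted p under 0.05, against 21.2% of all genes, and 1 was lower, against 20.2% of all genes. The median difference, cortex minus hippocampus, was 1.17 over the 34 genes, 1.61 over the 20 narrow genes and 0.90 over the 14 broad genes, while the median of all genes was 0.00. In 29 of 34 genes every cortex array lay above every hippocampus array after centring, which held for 4.88% of all genes. Region and extraction kit cannot be told apart in this design.

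The dopamine receptors came first. Drd2, the D2 receptor of indirect-pathway neurons, read 10.52, 10.05, 10.39, 10.46 and 9.70 in the cortex of WT animals 60, 62, 65, 95 and 98. In Ts1Cje cortex it ran from 10.30 through a median of 10.40 to 10.54. WT animal 98 was the lowest of the 11 animals and WT animal 62 the next, and the 9 others overlapped. In hippocampus Drd2 averaged 6.93 ± 0.20 in WT and 7.01 ± 0.31 in Ts1Cje, a difference between regions of 2.71 ± 0.10 (SE) after centring, or 6.55-fold (adjusted p = 5.95e-15). Drd1, the D1 receptor of direct-pathway neurons, read 9.64, 9.44, 9.95, 9.88 and 9.22 in WT cortex in the same order of animals, and 9.54 to 9.98 with a median of 9.69 in Ts1Cje cortex. Again animal 98 was lowest. Its hippocampal levels were 7.41 ± 0.19 in WT and 7.46 ± 0.14 in Ts1Cje, and cortex exceeded hippocampus by 1.63 ± 0.09 (SE; adjusted p = 1.47e-12). Drd3, a D2-type receptor best known from the islands of Calleja and the ventral striatum, averaged 6.78 ± 0.41 and 6.84 ± 0.28 in WT and Ts1Cje cortex and 5.75 ± 0.15 and 5.73 ± 0.26 in hippocampus, the smallest difference among the 32 genes higher in cortex (0.44 ± 0.12, SE; adjusted p = 0.00457).

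The 3 peptide precursors showed the same order of regions. Penk, the precursor of the enkephalins, read 12.26, 12.12, 12.43, 12.54 and 11.97 in WT cortex (animals 60, 62, 65, 95 and 98) and 12.33 to 12.56 with a median of 12.46 in Ts1Cje cortex. All 6 Ts1Cje animals lay above the 3 lowest WT animals and overlapped the other 2. Hippocampus gave 8.99 ± 0.11 in WT and 9.09 ± 0.26 in Ts1Cje, 2.68 ± 0.08 (SE) below cortex after centring (6.41-fold, adjusted p = 1.25e-16). Tac1, the precursor of substance P, read 8.66, 9.36, 9.83, 10.34 and 9.56 in WT cortex, and 9.22 to 10.25 with a median of 9.83 in Ts1Cje cortex. Its lowest values came from animals 60 and 64, the arrays with the narrower spread, and animal 98 lay above them and above animal 62. Tac1 averaged 6.94 ± 0.16 and 7.06 ± 0.30 in the hippocampus of WT and Ts1Cje mice, 2.07 ± 0.16 (SE) lower than in cortex (adjusted p = 7.81e-10). Pdyn, the precursor of the dynorphins, averaged 8.24 ± 0.33 in WT and 8.43 ± 0.26 in Ts1Cje cortex and 6.89 ± 0.15 and 6.85 ± 0.19 in hippocampus, a difference between regions of 0.83 ± 0.09 (SE; adjusted p = 2.92e-07).

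**Figure D1:**
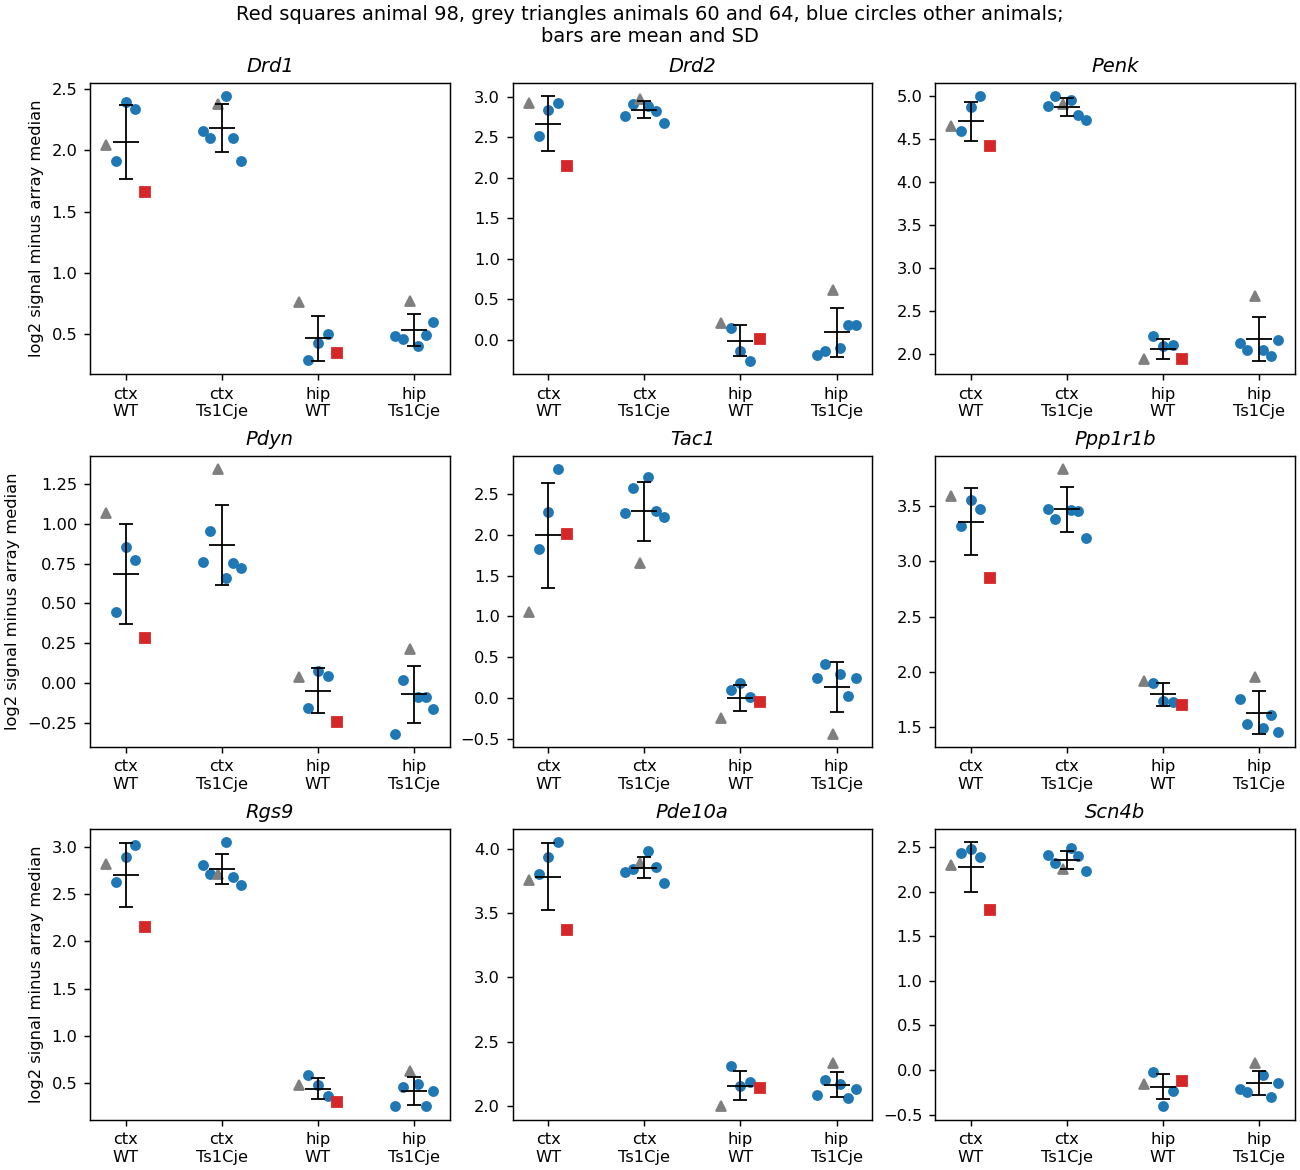
Log2 signal minus the array median of 9 striatal neuron genes in each animal, by region (ctx, cortex; hip, hippocampus) and genotype; points are animals, and black bars are the group mean and SD. Every cortex array lies above every hippocampus array, and WT animal 98 (red square) is the lowest cortex array in all but Tac1.

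Gpr6 and Gpr52, receptors coupled to the G protein that raises cyclic AMP, were also higher in cortex. Gpr6, a receptor of indirect-pathway neurons, read 9.79, 8.90, 9.44, 9.39 and 8.54 in WT cortex and 9.19 to 9.84 with a median of 9.33 in Ts1Cje cortex. Animals 64 and 60 were highest and animals 98 and 62 lowest. In hippocampus it averaged 6.79 ± 0.09 and 6.80 ± 0.39 (cortex higher by 1.87 ± 0.13, SE). Gpr52 averaged 9.85 ± 0.23 in WT and 9.94 ± 0.17 in Ts1Cje cortex and 7.88 ± 0.08 and 7.85 ± 0.15 in hippocampus. Oprm1, the mu opioid receptor of striatal patches and of many other neurons, averaged 7.83 ± 0.16 and 7.88 ± 0.09 in cortex and 6.63 ± 0.10 and 6.74 ± 0.11 in hippocampus, a difference of 0.54 ± 0.05 (SE).

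Cyclic AMP signals in these neurons reach genes through the transcription factor CREB, whose binding element is TGACGTCA or its core TGACG. Promoters from RefSeq (GRCm38.p6, 300 bases from 250 before to 50 after each start) matched 26 of the 34 genes with 46 windows. The full element, which reads the same on both strands, was in 1 of these 46 windows and in 1.79% of all 32851 windows. The core on either strand, which every full element also contains, was in 8 of 46 windows of 6 genes (Arpp21, Ebf1, Foxp1, Gpr6, Isl1 and Tac1) and in 20.8% of all windows. The 250 bases before the start are printed for the gene with the full element, for a direct-pathway peptide gene with the core and for the receptor gene with the largest difference between regions, because these 3 differ in the element while all were higher in cortex. Capitals mark each match to the core or the full element; a match is a description of the letters and no evidence of binding.
Gpr6, chr10:41072291-41072540, minus strand: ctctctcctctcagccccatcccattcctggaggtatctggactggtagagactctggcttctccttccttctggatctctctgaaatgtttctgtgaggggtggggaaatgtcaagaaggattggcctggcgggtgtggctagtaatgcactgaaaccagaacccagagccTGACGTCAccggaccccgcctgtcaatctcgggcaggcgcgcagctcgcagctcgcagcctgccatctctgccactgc
Tac1, chr6:7554811-7555060, plus strand: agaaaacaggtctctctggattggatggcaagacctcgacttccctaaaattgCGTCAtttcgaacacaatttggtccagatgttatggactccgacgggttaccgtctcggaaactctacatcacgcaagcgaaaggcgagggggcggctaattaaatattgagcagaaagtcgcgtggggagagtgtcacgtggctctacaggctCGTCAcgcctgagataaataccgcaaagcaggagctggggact
Drd2, chr9:49340153-49340402, plus strand: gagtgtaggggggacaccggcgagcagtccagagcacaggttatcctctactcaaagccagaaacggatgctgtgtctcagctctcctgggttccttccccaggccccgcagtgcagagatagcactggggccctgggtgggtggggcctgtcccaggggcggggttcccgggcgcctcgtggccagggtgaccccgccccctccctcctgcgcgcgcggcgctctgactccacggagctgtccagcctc
The match in Gpr6 starts 78 bases before the start of the gene, and those in Tac1 start 197 and 43 bases before it. The printed Drd2 stretch holds no match.

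Signalling proteins of medium spiny neurons were all higher in cortex, 9 of 9, with a median difference of 1.16. Ppp1r1b, which encodes DARPP-32, read 11.20, 10.85, 11.11, 11.02 and 10.41 in WT cortex and 10.83 to 11.40 in Ts1Cje cortex, where every animal but 64 lay at or below 11.03; animal 98 was lowest, and the next lowest read 10.83. In hippocampus it averaged 8.73 ± 0.11 in WT and 8.55 ± 0.20 in Ts1Cje (cortex higher by 1.70 ± 0.09, SE). Rgs9, a regulator that shortens D2 receptor signals, averaged 10.26 ± 0.34 and 10.32 ± 0.14 in WT and Ts1Cje cortex and 7.38 ± 0.11 and 7.34 ± 0.15 in hippocampus (2.30 ± 0.08, SE). Among the phosphodiesterases, Pde10a, which breaks down cyclic AMP and cyclic GMP in medium spiny neurons, averaged 11.34 ± 0.25 and 11.41 ± 0.06 in cortex against 9.10 ± 0.11 and 9.09 ± 0.11 in hippocampus (1.65 ± 0.06, SE). Pde1b, the calcium and calmodulin dependent enzyme, averaged 11.26 ± 0.20 and 11.38 ± 0.09 against 9.52 ± 0.07 and 9.54 ± 0.08. Pde7b, specific for cyclic AMP, averaged 10.58 ± 0.18 and 10.63 ± 0.08 against 8.64 ± 0.08 and 8.55 ± 0.05. The 3 phosphodiesterases thus differed between regions by 1.16 to 1.65.

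Adcy5, the main adenylyl cyclase of the striatum, averaged 10.75 ± 0.20 in WT and 10.80 ± 0.12 in Ts1Cje cortex and 9.14 ± 0.07 and 9.14 ± 0.08 in hippocampus. Rasd2, a small GTPase known as Rhes, averaged 10.29 ± 0.20 and 10.37 ± 0.07 in cortex and 8.59 ± 0.11 and 8.56 ± 0.07 in hippocampus. Both were higher in cortex (1.00 ± 0.06 and 1.12 ± 0.05, SE). Ptpn5, the striatum-enriched tyrosine phosphatase STEP, averaged 10.47 ± 0.08 and 10.55 ± 0.07 in cortex and 8.99 ± 0.10 and 8.97 ± 0.04 in hippocampus. Arpp21, a phosphoprotein regulated by cyclic AMP, averaged 11.55 ± 0.09 and 11.56 ± 0.06 against 10.00 ± 0.12 and 10.06 ± 0.08. These 2 broad genes varied least between cortex animals.

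Of the 5 channel, synapse and scaffold genes, 4 were higher in cortex. Scn4b, a sodium channel beta subunit, read 9.90, 9.97, 10.04, 9.93 and 9.35 in WT cortex and 9.82 to 10.03 with a median of 9.92 in Ts1Cje cortex; animal 98 lay apart, and the other 10 animals ran from 9.82 to 10.04. Hippocampus gave 6.75 ± 0.14 and 6.78 ± 0.15 (cortex higher by 2.48 ± 0.07, SE). Sh3rf2, a ubiquitin ligase with SH3 domains, averaged 8.30 ± 0.25 in WT and 8.51 ± 0.14 in Ts1Cje cortex and 5.75 ± 0.10 and 5.75 ± 0.16 in hippocampus. The remaining genes of the group differed less: Syndig1l averaged 8.44 ± 0.20 and 8.51 ± 0.17 in cortex against 6.65 ± 0.16 and 6.67 ± 0.17 in hippocampus. Actn2, the actinin of dendritic spines, averaged 9.26 ± 0.17 and 9.37 ± 0.05 against 7.97 ± 0.06 and 8.00 ± 0.04. Strip2 was the 1 gene of the 34 with no call either way (0.16 ± 0.09, SE; adjusted p = 0.156), and its levels were 9.57 ± 0.29 and 9.71 ± 0.20 in cortex and 8.88 ± 0.10 and 8.82 ± 0.21 in hippocampus.

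Among the 8 transcription factors, 7 were higher in cortex and Bcl11b was lower. Rarb and Rxrg, the retinoic acid and retinoid X receptors of the striatum, averaged 9.50 ± 0.28 and 9.38 ± 0.27 in WT cortex and 9.61 ± 0.20 and 9.65 ± 0.14 in Ts1Cje cortex. In hippocampus Rarb averaged 7.20 ± 0.09 and 7.20 ± 0.17, and Rxrg 7.34 ± 0.10 and 7.25 ± 0.06, for WT and Ts1Cje. Both were higher in cortex, by 1.73 ± 0.08 and 1.60 ± 0.07 (SE). Isl1, a factor of developing direct-pathway neurons and of cholinergic neurons, averaged 6.60 ± 0.34 and 6.76 ± 0.27 in cortex and 5.21 ± 0.09 and 5.36 ± 0.20 in hippocampus. Ebf1, another factor of direct-pathway neurons, averaged 7.94 ± 0.20 and 8.10 ± 0.16 against 6.86 ± 0.11 and 6.87 ± 0.13. Six3 averaged 7.58 ± 0.29 and 7.60 ± 0.19 against 6.08 ± 0.25 and 6.15 ± 0.20, and it specifies indirect-pathway neurons. Foxp1, shared by striatal and cortical neurons, averaged 10.66 ± 0.10 and 10.72 ± 0.07 against 9.37 ± 0.05 and 9.32 ± 0.04. Meis2 averaged 11.29 ± 0.31 and 11.35 ± 0.21 against 9.13 ± 0.09 and 9.26 ± 0.13, and it marks striatal and olfactory bulb neurons. Bcl11b, known as Ctip2 and present in striatal neurons, deep cortical projection neurons and hippocampal neurons, averaged 9.19 ± 0.16 and 9.22 ± 0.04 against 8.79 ± 0.10 and 8.68 ± 0.05. After centring it was lower in cortex, with a difference of -0.16 (SE 0.05; adjusted p = 0.00872); on the deposited values, where the median of all genes was itself 0.63 higher in cortex, it was higher by 0.47.

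The last 3 members have no common role. Serpina9, a serine protease inhibitor, read 7.16, 6.97, 7.27, 7.38 and 6.33 in WT cortex and 6.97 to 7.50 with a median of 7.18 in Ts1Cje cortex. Hippocampus gave 4.27 ± 0.06 and 4.39 ± 0.37 (cortex higher by 2.15 ± 0.12, SE). Ido1, an enzyme of tryptophan breakdown, averaged 5.89 ± 0.12 in WT and 6.06 ± 0.10 in Ts1Cje cortex and 4.76 ± 0.14 and 4.86 ± 0.10 in hippocampus. Cd4, best known as the co-receptor of helper T cells, averaged 6.89 ± 0.29 and 7.05 ± 0.23 in cortex and 5.19 ± 0.20 and 5.17 ± 0.32 in hippocampus, a difference of 1.16 ± 0.11 (SE). The 8 other genes measured of a T cell list, Thy1 among them, had a median difference of -0.06 between regions and a range of -0.31 to 0.47. Of these, 3 were called higher and 1 lower in cortex, against 21.2% and 20.2% of all genes.

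A list of other genes of striatal neurons and a list of the dopamine and cyclic AMP pathway, neither holding a member, gave the setting. Of 19 other striatal genes, 15 were higher and 2 lower in cortex (median 0.58), led by Foxp2 (2.27 ± 0.07, SE). Foxp2 was also listed as a gene of cortical projection neurons, and the next largest difference was that of Slc35d3 (1.36 ± 0.07, SE). Of 39 pathway genes, 16 were higher and 7 lower (median 0.08): the G protein subunit gene Gnal, which couples D1 receptors to adenylyl cyclase and is in both lists, was higher by 1.16 ± 0.08 (SE), and Drd5, the D1-type receptor known from the hippocampus, was lower, with a difference of -1.43 ± 0.07 (SE).

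The cortex animals did not carry these genes equally. The genes were chosen with the low values of animal 98 already known, so the counts below describe that animal and do not test it. WT animal 98 was the lowest of the 11 cortex arrays in 25 of 34 genes and in 17 of the 20 narrow genes, where the same array was lowest for 8.35% of all genes. It lay below the median of the other 10 animals in 34 of 34 genes, by a median of -0.40 over the 34, by -0.49 over the narrow genes (0.714 times the other animals) and by -0.28 over the broad genes, against -0.002 over all genes. Serpina9 was furthest down in animal 98, at 0.553 times the median of the others, followed by Gpr6 at 0.569, Drd2 at 0.612, Rgs9 at 0.652 and Ppp1r1b at 0.658. Both pathways were included: Drd1 stood at 0.722, Pdyn at 0.713 and Isl1 at 0.702 times the others, and Penk at 0.726. The direct-pathway genes Tac1 (0.828) and Ebf1 (0.918) and the indirect-pathway gene Six3 (0.843) were less far down. Animal 98 was the lowest of the 11 cortex arrays in none of them. Meis2 (0.982), Oprm1 (0.971), Arpp21 (0.945) and Ebf1 (0.918) were nearest to the other animals. In the hippocampus of animal 98 the genes were less low. It was the lowest of 11 in 4 of 34, and 8.63% of all genes had their lowest value there. Its mean deviation over the 34 genes was still the lowest of the 11 hippocampal arrays, at -0.062, against -0.365 in cortex. Without animals 60 and 64, animal 98 was the lowest of the 9 cortex arrays left in 26 of 34 genes and in 11.6% of all genes.

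**Figure D2:**
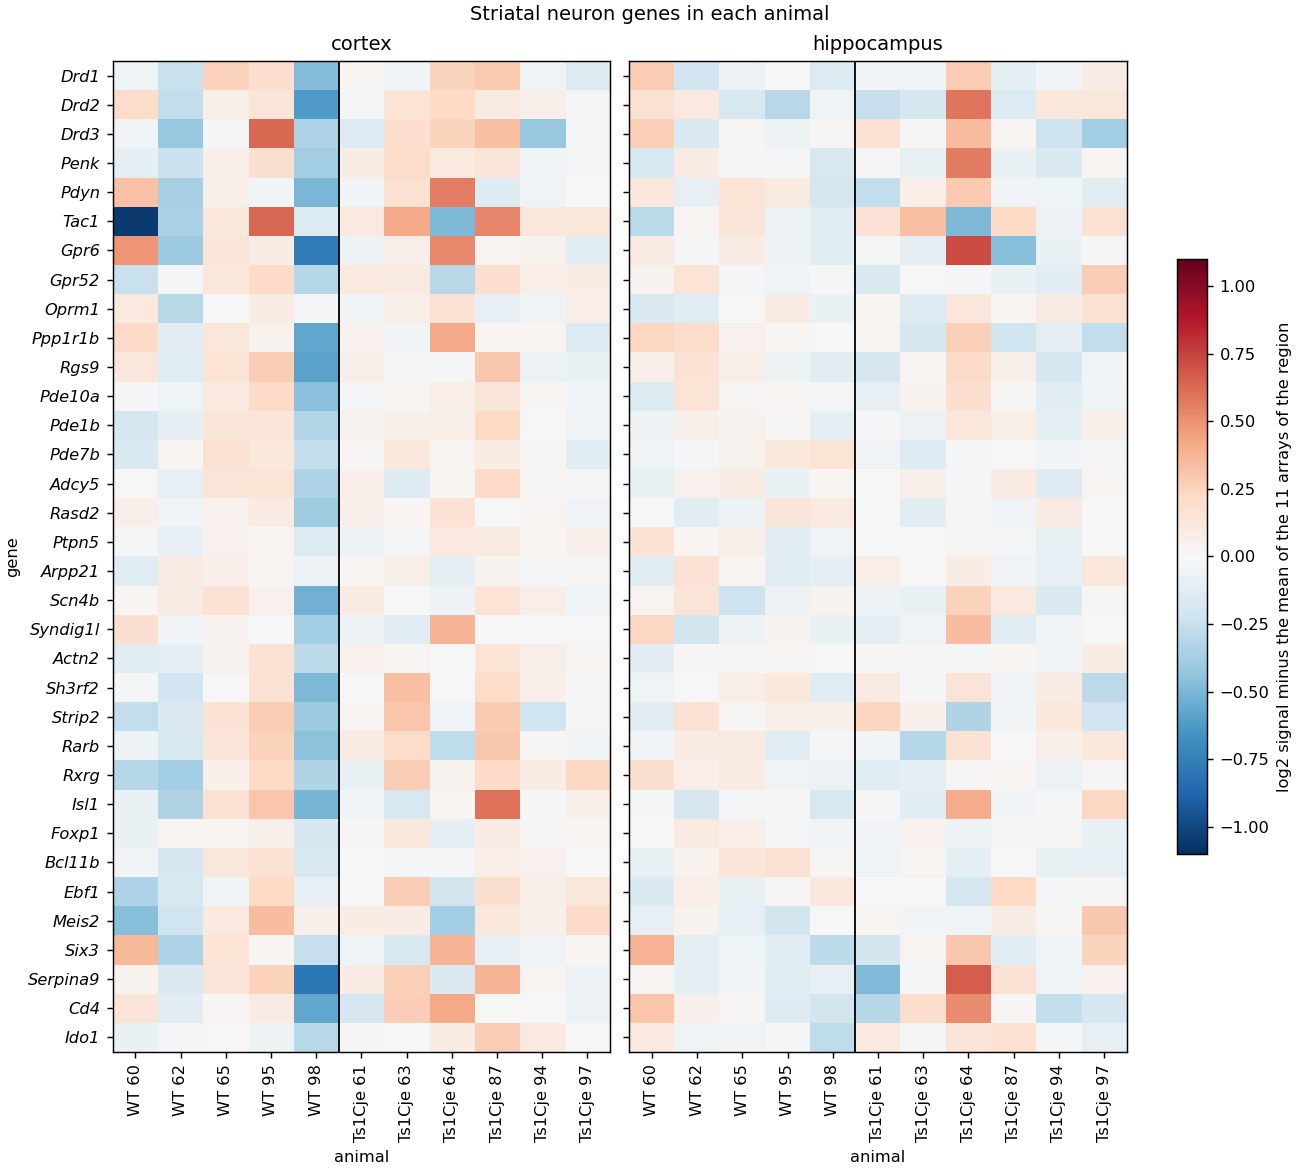
Log2 signal of each of the 34 genes in each animal minus the gene's mean over the 11 arrays of the region, in cortex (left) and hippocampus (right), with animals in columns and the genotypes separated by a black line; red is above and blue below the mean. WT animal 98 is blue in cortex in nearly all genes, with a mean deviation of -0.365. In hippocampus its mean is also the lowest of the 11 but nearer the mean, at -0.062. Animals 60 and 64 depart in both directions.

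Averaged over the 20 narrow genes, cortex animals deviated from the mean of the 11 by -0.47 (animal 98), -0.17 (animal 62), 0.03 (animal 60), 0.10 (animal 65) and 0.15 (animal 95) among WT. The Ts1Cje animals lay between -0.02 (animal 97) and 0.18 (animal 87). So both the lowest and the next lowest animals were WT, and the WT and Ts1Cje ranges overlapped above them. The hippocampal deviations ran from -0.07 in animals 61 and 98 to 0.07 in animal 60, with animal 64 apart at 0.23. The choroid plexus and olfactory bulb lists did not follow the same order in cortex. Choroid plexus genes were high in animals 97, 98 and 65 (0.79, 0.71 and 0.60) and low in animals 94 and 62 (-0.74 and -0.63). Olfactory bulb genes ran from -0.69 in animal 62 to 0.60 in animal 97.

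Against the median of the other 10, the cortex array of animal 98 also had 10 of 10 choroid plexus genes above (median 0.76), 8 of 8 olfactory bulb genes above (median 0.40), 6 of 6 cholinergic neuron genes below (median -0.28) and 17 of 19 other striatal genes below (median -0.17). Its cortical projection neuron genes had a median difference of 0.00 and its oligodendrocyte genes of -0.08. The part of these other lists in the low striatal values was not tested.

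**Figure D3:**
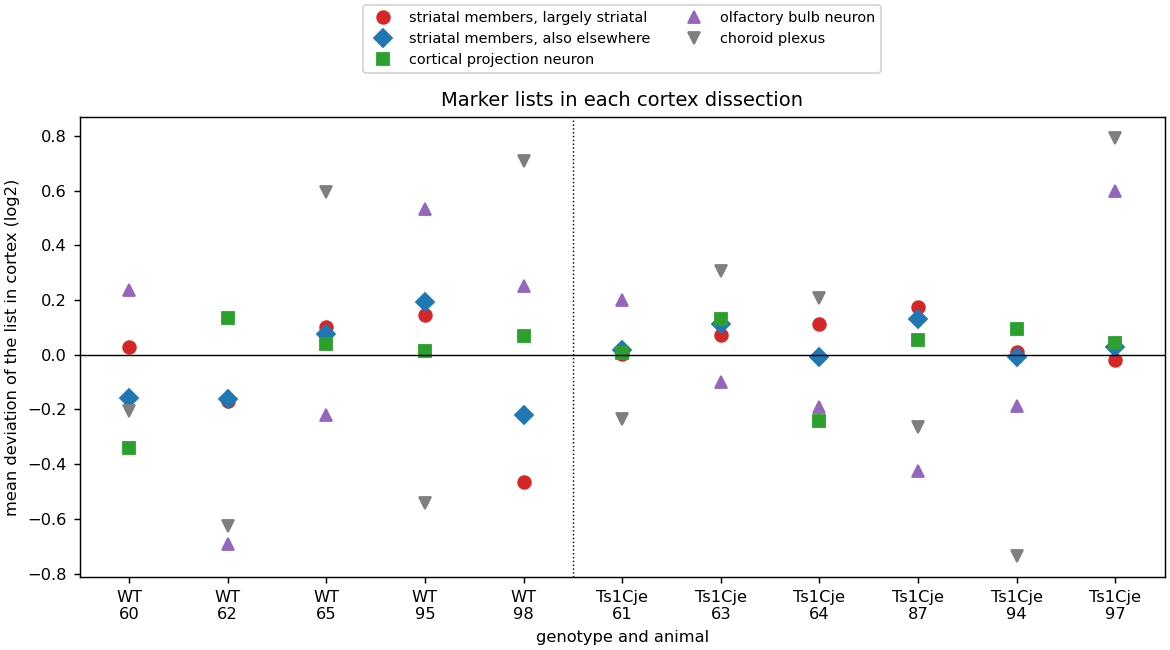
Mean deviation of each marker list from its mean over the 11 cortex arrays (log2), by animal; the dotted line separates WT from Ts1Cje. Narrow striatal genes (red circles) are lowest in WT animal 98 at -0.47, while choroid plexus genes (grey triangles) are high in animals 65, 97 and 98 and olfactory bulb genes (purple triangles) are highest in animals 95 and 97.

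Genes with a larger difference between cortex and hippocampus were further down in animal 98. Across the 34 genes, the difference of animal 98 from the other animals and the difference between regions had a Pearson correlation of -0.609 (Spearman -0.627), and across the 20 narrow genes -0.716 (Spearman -0.780), whereas across all 20239 genes it was -0.100 (Spearman -0.028). These are descriptions across genes, which are not independent replicates, and the array of animal 98 enters both measures.

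**Figure D4:**
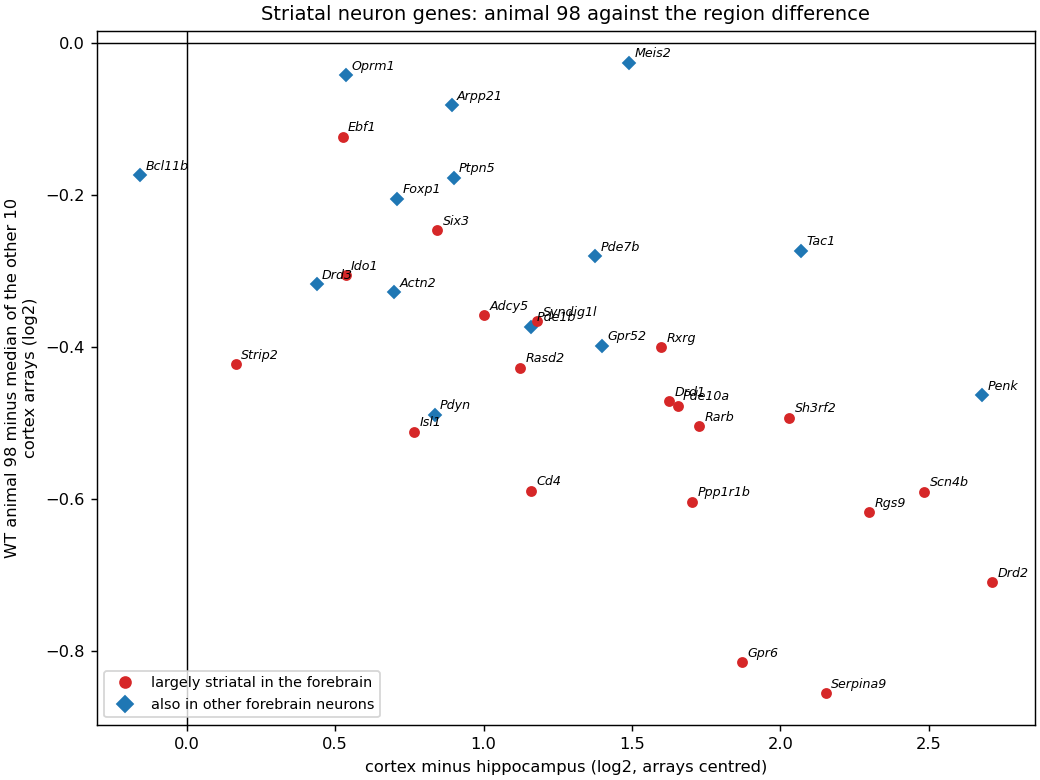
For each of the 34 genes, the log2 signal in the cortex of WT animal 98 minus the median of the other 10 cortex arrays, against the cortex minus hippocampus difference (log2, arrays centred); red circles are narrow and blue diamonds broad genes. All 34 points lie below 0 on the vertical axis, and Serpina9, Gpr6 and Drd2 lie lowest.

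The spread between animals depended on which arrays were kept. It is given as the SD over animals after removing the genotype means. With all 11 cortex arrays the median SD of the 34 genes was 0.197 and that of all genes 0.214; 1 of 34 genes, Tac1 (0.492), was among the 5.0% of all genes that varied most. Gpr6 (0.371) and Drd3 (0.344) followed, and Arpp21 (0.0724), Ptpn5 (0.0739) and Foxp1 (0.0858) varied least. Without animals 60 and 64 the median SD of all genes was 0.0936 while that of the striatal genes was 0.192, and 11 of 34, 9 of them narrow, were then among the 5% that varied most. Leaving out animal 98 as well brought the striatal median to 0.141 and the count to 3. In hippocampus the striatal genes had a median SD of 0.136 with all arrays and 0.111 without animals 60 and 64, against 0.144 and 0.0909 for all genes, and 0 of 34 were among the 5% that varied most in either case. Of the other striatal genes, Gpr149 (0.372), Ano3 (0.296), Zfp503 (0.253), Gng7 (0.229) and Kcnh4 (0.215) had the largest SD in cortex.

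Single pairs of genes were followed over the 11 cortex animals in 4 relations, with permutation tests of 100000 resamples, two-sided. Animal 98, known to be low when the genes were chosen, was the lowest in Drd1, Drd2, Penk and Pdyn. The p-values below are therefore not independent of that choice, and they do not show by themselves that the genes of a pair vary together. Drd1 and Drd2, which mark different neurons, were correlated by Pearson's r (0.813, p = 0.00436, 0.0134 after Benjamini-Hochberg adjustment) but not beyond the adjusted threshold by rank (Spearman's rho 0.591, p = 0.0605, adjusted 0.121). Without animals 87 and 98, the farthest from the Drd1 median, r was 0.655, and within the 6 Ts1Cje animals it was 0.641. Drd2 and Penk, both of indirect-pathway neurons, gave r = 0.843 (permutation p = 0.0067, adjusted 0.0134) and rho = 0.618 (p = 0.0475, adjusted 0.121). Without animals 62 and 98, both WT, r was 0.169, so over all animals the relation depended on them; within the 6 Ts1Cje animals r was 0.634. Drd1 with Pdyn (r = 0.603, permutation p = 0.0475, adjusted 0.0633; rho = 0.351, p = 0.290; r = 0.565 without animals 87 and 98 and 0.295 within Ts1Cje) and Drd1 with Tac1 (r = 0.302, permutation p = 0.373; rho = 0.400, p = 0.223; r = 0.185 without the same animals and -0.157 within Ts1Cje) did not pass. Leaving out animals 60 and 64 instead, r was 0.848, 0.954, 0.654 and 0.734 for Drd1 with Drd2, Drd2 with Penk, Drd1 with Pdyn and Drd1 with Tac1.

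Genes outside the list that tracked it most closely were found by the correlation, over the 11 cortex arrays with genotype means removed, with the mean of the narrow genes; they were picked for this value, so no test is given. Htr1d, a serotonin receptor gene, came first (r = 0.947, rho = 0.964, and r = 0.889 without animals 95 and 98), and its difference between regions was 1.72. Its cortex signal was 6.54 in animal 98 and 6.81 to 7.42 in the others. Sh2d5 (r = 0.899), Ankrd63 (0.879), Slc6a6 (0.861), Sall2 (0.848), Rasgrp2 (0.847), Myo3b (0.846), Psme3ip1 (0.843), Krt10 (0.840) and P2ry1 (0.839) followed, each lowest in animal 98. The correlations of these 9 rested in part on the farthest animals: without animals 95 and 98 they ran from 0.455 (Rasgrp2) to 0.803 (Myo3b), and without animal 98 alone from 0.513 (Rasgrp2) to 0.828 (Myo3b). Their differences between regions had no common direction, from -0.44 in Sall2 and -0.21 in Psme3ip1 through 0.04 in P2ry1 and 0.06 in Sh2d5 to 1.54 in Rasgrp2. None of the 10 was in the list of other striatal genes, but that list is not complete and their expression in striatum was not measured.

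Between genotypes, no striatal neuron gene passed the test in cortex. By limma, 0 of 34 had an adjusted p under 0.05 (0.00494% of all genes did), and every adjusted p was 1.0. All 34 differences, Ts1Cje minus WT, were above 0, as were 48.5% of all genes; their median was 0.11, that of the narrow genes 0.13 and that of the broad genes 0.07. Values ran from 0.01 ± 0.06 (SE) in Arpp21 to 0.30 ± 0.27 in Tac1. Rxrg (0.27 ± 0.12) and Ido1 (0.17 ± 0.08) were the 2 with an unadjusted p under 0.05. The dopamine receptors gave 0.12 ± 0.14 for Drd1, 0.18 ± 0.14 for Drd2 and 0.07 ± 0.19 for Drd3. The peptide genes gave 0.18 ± 0.10 for Penk and 0.19 ± 0.16 for Pdyn, and Ppp1r1b gave 0.12 ± 0.14, Scn4b 0.08 ± 0.11, Pde10a 0.08 ± 0.10 and Rgs9 0.07 ± 0.14.

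The shared direction and its size depended on single WT animals. Without WT animal 98, 22 of 34 differences were above 0 and the median was 0.02, with the narrow genes at 0.01; Drd1 was then 0.02 ± 0.12 (SE), Drd2 0.05 ± 0.10, Serpina9 0.02 ± 0.12, Rgs9 -0.07 ± 0.10 and Scn4b -0.04 ± 0.07. Tac1 (0.30 ± 0.30) and Rxrg (0.23 ± 0.13) moved little without animal 98, but Tac1 fell to 0.07 ± 0.22 without WT animal 60. Without WT animal 95, in contrast, all 34 were above 0, the median was 0.175 and 5 genes had an unadjusted p under 0.05, with 0 called. Without animals 60, 64 and 98 together, 20 of 34 were above 0 with a median of 0.01, whereas without animals 60 and 64 alone 33 of 34 were above 0 with a median of 0.11. The other striatal genes had 15 of 19 differences above 0 (median 0.05) and the dopamine and cyclic AMP pathway 27 of 39 (median 0.03), with 0 called in either list. Several lists of other cell types also had most differences above 0. These included thalamic neuron genes with 9 of 10 (median 0.14), interneuron genes with 10 of 12 (0.11) and microglia genes with 9 of 11 (0.10). Oligodendrocyte genes had 10 of 11 (0.07) and endothelial genes 8 of 10 (0.07) above 0. In contrast, 3 of 10 astrocyte genes (-0.02), 3 of 10 choroid plexus genes (-0.08) and 2 of 8 T cell genes (-0.13) were above 0. Some neuronal lists did likewise, with 8 of 18 hippocampal neuron genes (-0.009), 3 of 8 olfactory bulb genes (-0.065) and 3 of 10 septal and hypothalamic genes (-0.085). The part of these lists in the striatal values was not tested.

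**Figure D5:**
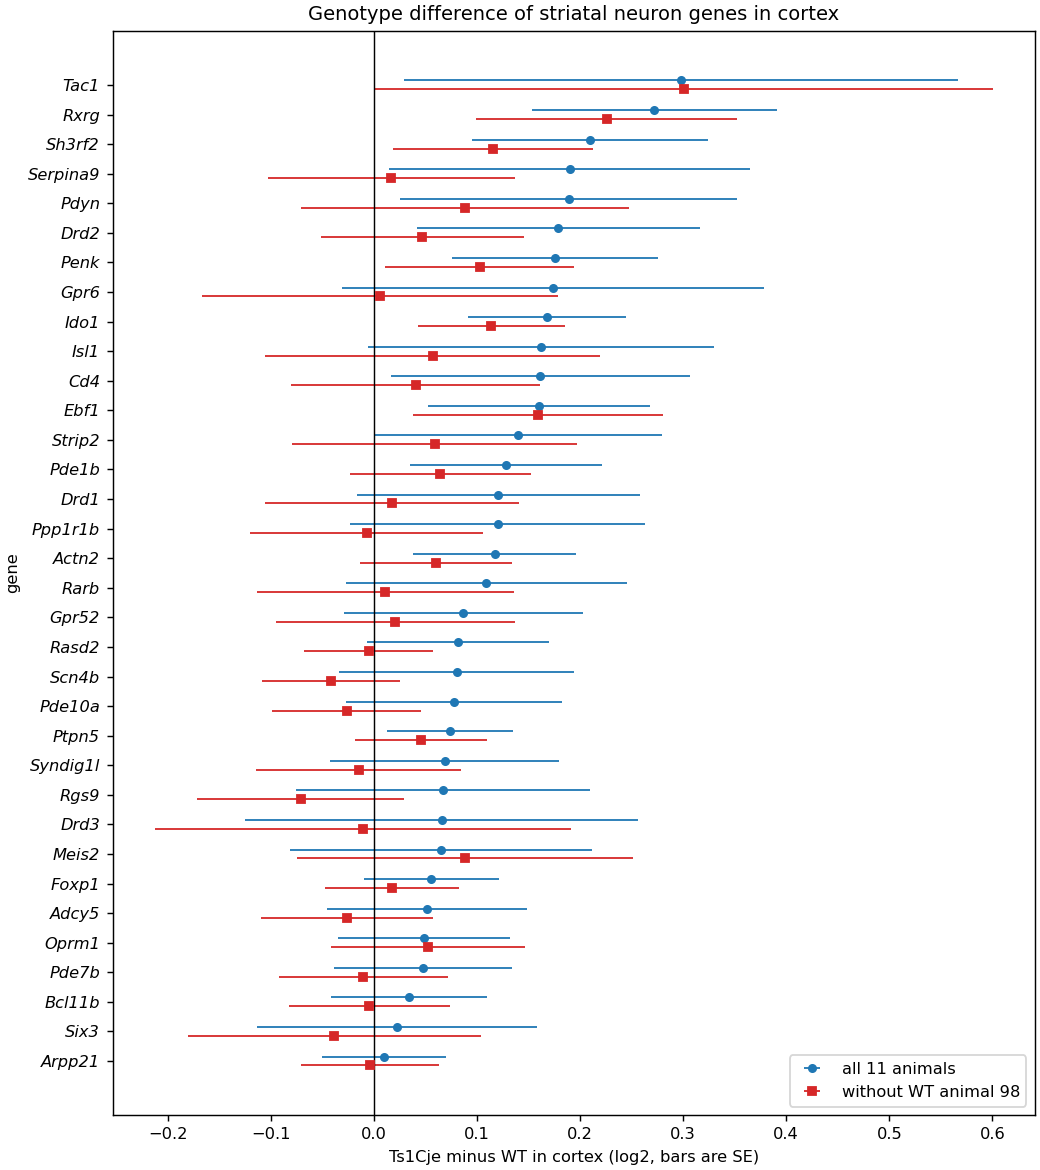
Difference between Ts1Cje and WT cortex (log2) for each of the 34 genes, with standard errors, for all 11 animals (blue circles) and without WT animal 98 (red squares). All blue points lie above 0, and the red points lie on both sides of 0, with 22 above it.

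The hippocampus of the same animals showed no common direction. By limma 0 of 34 genes passed, and 0 had an unadjusted p under 0.05 (0.114% of all genes passed). Of the 34 differences 18 were above 0, against 46.3% of all genes, with a median of 0.01 and a range from -0.18 ± 0.09 (SE) in Ppp1r1b to 0.16 ± 0.09 in Isl1. Drd1 (0.05 ± 0.09), Drd2 (0.09 ± 0.15), Penk (0.10 ± 0.12), Pdyn (-0.04 ± 0.10), Tac1 (0.12 ± 0.14), Rgs9 (-0.04 ± 0.08), Pde10a (-0.01 ± 0.07) and Scn4b (0.03 ± 0.08) lay within it. Ts1Cje animal 64 was the highest hippocampal array in 17 of 34 genes and in 30.6% of all genes, and without it 11 of 34 differences were above 0.

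The test of the difference between the genotype effects of the regions called 0 of 34 genes and 0.0% of all genes; 1 of the 34, Rxrg (0.36 ± 0.13, SE), and 260 of all genes had an unadjusted p under 0.05. The median of this difference over the 34 genes was 0.10, and 0.02 without animal 98. A genotype difference in striatal neuron genes was therefore not detectable in either region with 5 WT and 6 Ts1Cje animals, and a p that misses the threshold does not show that the genotypes were alike.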

How the data were processed

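The authors deposited log2 expression values, 1 per gene and array, made with RMA per the submitters' processing notes; no source used here says whether both regions were normalised together or how probe sets were defined. Features were named through the platform annotation, which gave 1 symbol for 20239 of 21225 features and none for 986. The members and lists were chosen with earlier results of these data known, and the low animal 98 was among those results. Genotypes were compared within each region, and regions and their genotype effects across all 22 arrays, by linear models in limma 3.58.1 (R 4.3.3; default eBayes prior, two-sided, Benjamini-Hochberg over 20239 genes, called at an adjusted p under 0.05). Region values were centred on each array's median. Correlations used scipy 1.17.1. Animals were the replicates. Numbers pair the arrays of an animal by the labels. The 2 arrays of an animal had a median correlation of deviations of 0.265, with the highest values in animals 64 (0.761) and 60 (0.61). In 2 of 11 animals the partner by label was the best match, so the pairing rests on the labels. Named genes were all members, 5 other striatal genes by SD, 10 genes by correlation and the leading genes of other lists. The alternatives were other normalisations, priors, array weights, filters on dim genes, animal blocks and leaving out animals. The limma steps were tested on simulated data.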

Additional observations from a re-analysis of the deposited data

Results flagged for a closer look

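In 18 of 136 groups of animals for a gene, 1 array stood apart from the others of its genotype and region. The gap was large for the group's range, by a rule that flags about 1 in 20 groups by chance. The genes share the same arrays, so the groups are not independent and the count was not tested against this rate. WT animal 98 stood apart below in cortex for Scn4b (9.35, others 9.90 to 10.04), Rasd2 (9.94, others 10.31 to 10.42) and Ido1 (5.67, others 5.91 to 5.98). Ts1Cje animal 64, whose arrays had a narrower spread, stood above the others in cortex for Gpr6 (9.84), Ppp1r1b (11.40), Syndig1l (8.85) and Six3 (7.97) and below them for Gpr52 (9.60) and Meis2 (10.95). In hippocampus animal 64 stood above for Penk (9.61, others 8.88 to 9.08), Gpr6 (7.52, others 6.33 to 6.77) and Syndig1l (7.0). Isl1 was highest in the cortex of Ts1Cje animal 87 (7.29, others 6.52 to 6.74), and Oprm1 lowest in that of WT animal 62 (7.55, others 7.84 to 7.96). Hippocampal arrays of 4 further animals stood apart for 1 gene each: Gpr52 in animal 97 (8.14), Pde7b in animal 63 (8.45), Ptpn5 in animal 94 (8.90) and Actn2 in WT animal 60 (7.87).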

How the results depend on the processing

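No call of a striatal neuron gene between genotypes appeared under any alternative run. Leaving out 1 animal at a time, the members above 0 ranged from 22 (without animal 98) to 34 in cortex and from 11 (without animal 64) to 22 in hippocampus, and without animals 60, 64 and 98 the cortex count was 20. The cortex median, 0.113, ran from 0.0195 (without animal 98) to 0.175 (without animal 95), and was 0.0698 with array weights. With the animal taken as a replicate block, fixed or random, 33 genes were called between regions, as without it, with a median of 1.17, and no genotype call changed. The region median was 1.80 on the deposited values without centring, where all 34 genes were higher in cortex. The count of members among the 5% that varied most in cortex, 1 with all arrays, was 6 by the median absolute deviation, 0 without animal 95 to 2 without animal 60, 11 without animals 60 and 64, and 3 without animals 60, 64 and 98.

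Uncalled differences of single genes that changed sign follow; the cause was not tested. Leaving out 1 animal at a time, the cortex differences ran from -0.00691 (without animal 98) to 0.190 for Ppp1r1b, from -0.071 (98) to 0.144 for Rgs9, from -0.0262 (98) to 0.141 for Pde10a and from -0.0417 (98) to 0.130 for Scn4b. Without animals 60, 64 and 98 they were -0.0488 (Drd1), -0.0292 (Ppp1r1b), -0.0549 (Rgs9), -0.0621 (Pde10a) and -0.0418 (Scn4b). Drd1 ran from 0.0180 to 0.201 without 1 animal. In hippocampus the same ranges were -0.000955 (without animal 64) to 0.127 for Drd1, -0.0241 (64) to 0.144 for Drd2, -0.00379 (64) to 0.142 for Penk, -0.0992 to 0.0135 (61) for Pdyn, -0.0478 to 0.0272 (62) for Pde10a and -0.0267 (65) to 0.0652 for Scn4b. Penk there was -0.0241 with array weights, -0.0312 without animals 60 and 64 and -0.0804 without animals 60, 64 and 98. Scn4b was -0.0118 without animals 60 and 64, and Pde10a was 0.00906 after quantile normalisation and 0.00637 after centring. For the difference of the genotype effects the ranges were -0.00265 (without animal 87) to 0.159 for Drd1, -0.0400 (98) to 0.215 for Drd2, -0.0109 (98) to 0.145 for Pde10a and -0.0815 (98) to 0.157 for Scn4b. Without animals 60, 64 and 98 Drd1 was -0.107 and Scn4b -0.0522, and Scn4b was -0.00216 after quantile normalisation. No detection call was used, so low signals, as of Serpina9 and Ido1 in hippocampus, are least certain.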
